A study of Mus musculus with 6 samples.

Results

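The genes described here encode splicing factors and heterogeneous nuclear ribonucleoproteins (hnRNPs). They were chosen by name and level: the gene symbol had to start with Srsf, Hnrnp, U2af, Sf3a, Sf3b, Snrp or Prpf, pseudogene symbols were left out, and the mean normalized count over all libraries had to reach 10. Of 70 symbols with these beginnings, 67 met the rule, out of 41255 listed genes, of which 11550 reached the same mean level. The 67 genes comprised 10 Srsf, 20 Hnrnp, 3 U2af, 3 Sf3a, 6 Sf3b, 12 Snrp and 13 Prpf genes. The members nearest above the limit were Snrpn with a mean normalized count of 29.6, Snrpf with 208 and U2af1l4 with 262. Srsf12 lay under it with 0.504, and Hnrnpa1l2-ps and Snrp1c-ps2, with 3.99 and 0, were left out as pseudogenes.

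Introns are removed from precursor mRNA by the spliceosome, which is built anew on each intron from small nuclear ribonucleoproteins (snRNPs). Most spliceosomal snRNPs carry a ring of Sm proteins on their RNA, encoded by Snrp genes, and U6 carries a ring of LSm proteins instead. U2AF and the SF3A and SF3B complexes of the U2 snRNP recognise the 3' splice site and the branch point, and the PRPF proteins of the U4/U6.U5 tri-snRNP bring the enzyme into its active form. SR proteins (Srsf genes) bind exons and mostly favour their inclusion, whereas many hnRNPs bind introns or exons and counteract them, so the balance between both families sets much of alternative splicing. Mutations of SF3B1, SRSF2 and U2AF1 are recurrent in human myeloid malignancies.

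Polyadenylated RNA was sequenced from 6 monoclonal Ba/F3 cultures, an interleukin-3 dependent mouse cell line of lymphoid type. Clones 28, 29 and 36 had received a retroviral cDNA for wild-type human RPL10 (WT), and clones 11, 13 and 35 the same cDNA with the arginine at residue 98 changed to serine (R98S), a mutation of a large-subunit ribosomal protein found in T-cell leukemia. A short hairpin RNA against mouse Rpl10 was present in both groups, and all cells were treated briefly with cycloheximide before lysis. Every culture came from 1 cell, so the 3 libraries of a group are 3 clones of 1 parental line, and the p-values below measure the spread between such clones.

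Libraries held between 21786776 and 24204991 reads on genes, and 3 reads corresponded to a normalized count of 2.78 to 3.22. Normalized counts of Rpl10 ran from 1900 to 3156 in WT and from 1883 to 3028 in R98S clones, and the share that stems from the human cDNA is unknown. Of 11 markers for an interleukin-3 dependent lymphoid line, 7 had a mean of at least 10, including the receptor chains Il3ra, Csf2rb and Csf2rb2. The B cell genes of the list were divided. Cd79a and Cd79b had means of 1162 and 415, whereas the early B cell genes Vpreb1, Igll1 and Pax5 were at or near 0 and Ebf1 did not exceed 11.3. Over the whole list, the summed level was 103210 to 122270 in WT and 138590 to 163830 in R98S clones, a sum made up mostly of Csf2rb and Csf2rb2, while Ptprc, a pan-leukocyte surface protein, was at 10710, 14070 and 8869 in WT and 5657, 4391 and 3366 in R98S clones. Markers of other cell types were low: 1 of 5 T cell genes (Lck), 0 of 4 stromal genes, 1 of 3 erythroid genes (Hba-a1) and 1 of 5 mast cell and myeloid genes (Cpa3) reached a mean of 10. Their summed levels in WT and R98S clones were 34.8 to 92.1 and 91.9 to 114 for T cells, 12.3 to 24.7 and 10.2 to 21.4 for stroma, 11.8 to 73.1 and 2.78 to 12.2 for erythroid cells, and 34.8 to 131 and 43.9 to 393 for mast and myeloid cells. The part of these lists in the results below was not tested.

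Between R98S and WT cells, 11 of the 67 genes (16.4%) passed an adjusted p of 0.1 in limma and are referred to as called, compared with 23.9% of all tested genes. Higher in R98S cells were 8 of them (11.9%, background 10.7%), namely Prpf4, Prpf31, Prpf38a, Prpf6, Sf3a3, Sf3a1, Snrpe and Srsf2. Lower were 3 (4.48%, background 13.1%), namely Hnrnpa1, Prpf39 and Hnrnpul1. None of the called genes changed 2-fold. The groups did not overlap for 23 of 67 genes (34.3%, background 37.3%). As a class these genes were therefore not called more often than genes at large. By family, the calls were 4 higher and 1 lower of 13 Prpf genes, 2 higher of 3 Sf3a genes and 1 higher of 12 Snrp genes. They were 1 higher of 10 Srsf genes, 2 lower of 20 Hnrnp genes, and 0 of 3 U2af and 6 Sf3b genes. Families hold as few as 3 genes, and a difference between them was not tested. At an unadjusted p under 0.05, 0 of the U2af and 0 of the Sf3b genes passed in limma, and edgeR and DESeq2 called 0 of them as well. Without R98S clone 13, U2af1 and U2af2 were called, and relative to their neighbouring genes Sf3b3 and Sf3b6 were.

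Differences were small. The median log2 fold change (R98S minus WT, on log2(normalized count + 1)) of the 67 genes was 0.078, with 41 above and 26 below 0, compared with a median of -0.011 over all tested genes. The median size of the change, whatever its direction, was 0.19 on the log2 scale for the members and 0.27 for all tested genes. Together the members took 1.92%, 1.81% and 1.94% of the normalized counts of WT clones 28, 29 and 36, versus 2.06%, 1.88% and 2.10% of those of R98S clones 11, 13 and 35. The means were 1.89% ± 0.0713 and 2.01% ± 0.117 (SD, n = 3), and R98S clone 13 lay inside the WT range. Hnrnpa1 alone accounts for a good part of this sum, and without it the shares were 1.70% ± 0.0659 in WT and 1.88% ± 0.0972 in R98S cells. The share of the Prpf genes was 0.210% ± 0.00644 against 0.245% ± 0.0101, and that of the Sf3a genes 0.0279% ± 0.000835 against 0.0389% ± 0.00231 (all SD, n = 3). In bulk RNA, fewer cells with a transcript and less transcript per cell cannot be told apart.

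**Figure D1:**
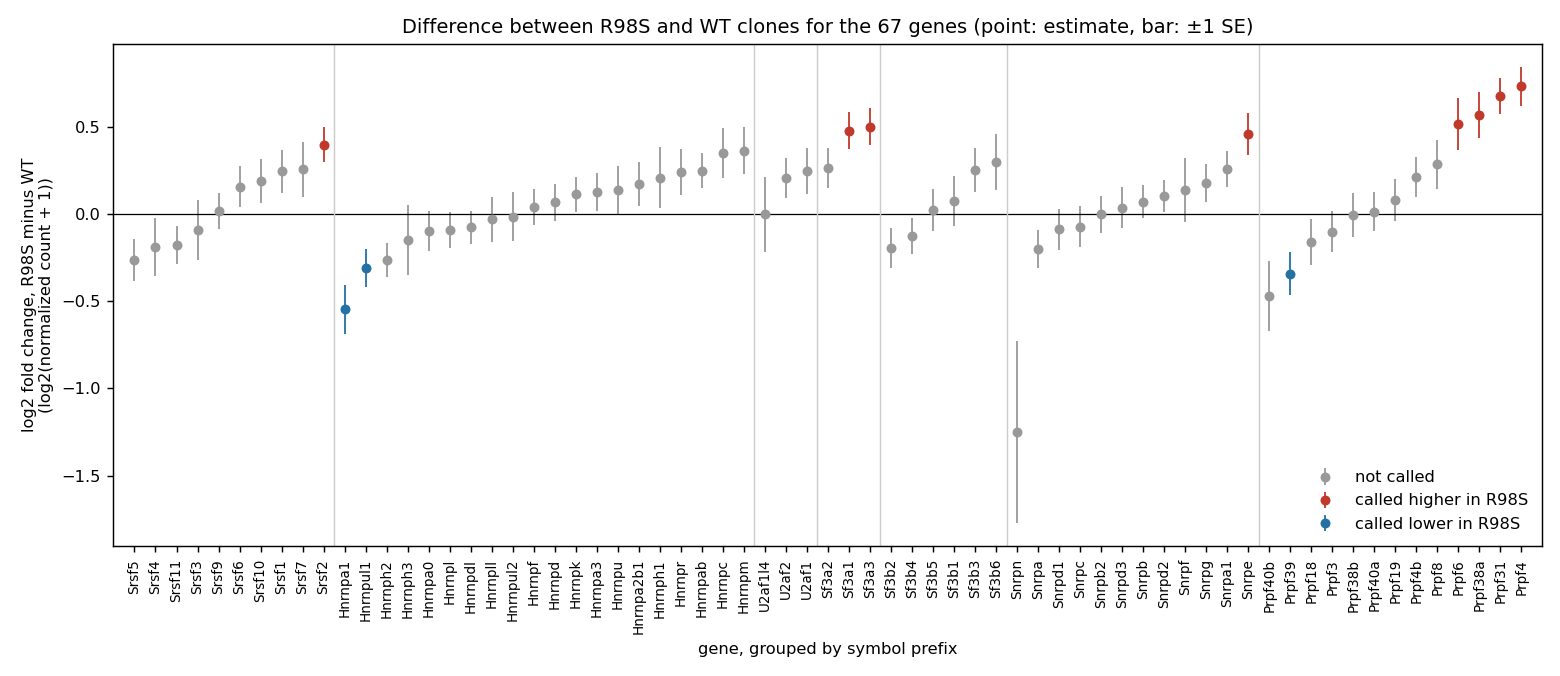
Log2 fold change between R98S and WT cells of the 67 genes, arranged by family, with bars of 1 SE to each side and colours for called genes. Most genes lie close to 0, Prpf4 is the highest at 0.73 and Snrpn, which was not called, the lowest at -1.25.

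Among the called members, the highest fold changes were those of Prpf4 and Prpf31, both of the U4/U6.U5 tri-snRNP. Prpf4 encodes a U4/U6 protein that binds PRPF3. Its normalized count was 1396, 1367 and 1307 in WT clones 28, 29 and 36, versus 2280, 2024 and 2486 in R98S clones 11, 13 and 35. Every R98S clone stood well above every WT clone, and WT clones were close together. The means were 1357 ± 45.3 and 2263 ± 231 (SD, n = 3), and the log2 fold change was 0.73 (SE 0.11, adjusted p in limma = 0.00679). Prpf31, which bridges U4/U6 and U5 and is mutated in inherited retinitis pigmentosa, had 2437, 2481 and 2321 in WT and 3693, 3658 and 4256 in R98S clones. Again the groups did not overlap, and the log2 fold change was 0.68 (SE 0.10, adjusted p in limma = 0.00666). Both calls were kept in all 16 alternative fits, with adjusted p no higher than 0.0314 for Prpf4 and 0.034 for Prpf31. Prpf4 lies at chr4:62408797-62426990 and Prpf31 at chr7:3629985-3642486, both on the plus strand of GRCm38.

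Prpf6, a U5 protein that contacts U4/U6, was also higher. Its values were 1865, 1911 and 1865 in WT clones versus 2324, 3405 and 2469 in R98S clones, so the groups did not overlap and clone 13 stood above the other R98S clones. The log2 fold change was 0.52 (SE 0.15, adjusted p in limma = 0.0529). The call was lost without WT clone 28, 29 or 36, with log2 fold changes of 0.51, 0.53 and 0.51, and the adjusted p over the alternatives ran from 0.0097 to 0.148. The other tri-snRNP genes of this naming did not pass. Prpf3, whose protein forms a complex with PRPF4, had 1538, 1512 and 1489 in WT and 1623, 1337 and 1294 in R98S clones (log2 fold change -0.10, SE 0.12, adjusted p in limma = 0.6). Prpf8, the large U5 protein at the catalytic centre, had 12294, 12831 and 11206 in WT and 12644, 17889 and 14138 in R98S clones (0.29, SE 0.14, adjusted p in limma = 0.212). For both genes the ranges of the groups overlapped. Within each library, the ratio of Prpf4 to Prpf3 counts was 0.908, 0.904 and 0.878 in WT and 1.41, 1.51 and 1.92 in R98S clones. The ratio of Prpf31 to Prpf3 counts was 1.59, 1.64 and 1.56 in WT and 2.28, 2.74 and 3.29 in R98S clones. Prpf3 was chosen for these ratios after its values were seen. The ratios have no test and add nothing to the separate results of the 3 genes.

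Of the 8 remaining Prpf genes, 1 rose and 1 fell. Prpf38a, a protein of the precatalytic complex, had 1895, 1755 and 2358 in WT and 3060, 2746 and 3061 in R98S clones. The highest WT clone, 36, remained below the lowest R98S clone, and the log2 fold change was 0.57 (SE 0.13, adjusted p in limma = 0.0262). Without WT clone 28 the log2 fold change was 0.54 and the call was lost, with adjusted p from 0.00226 to 0.102 over the alternatives. Prpf39, related to a yeast U1 snRNP protein, had 2226, 1740 and 2080 in WT and 1666, 1564 and 1521 in R98S clones. The gap between WT clone 29 and R98S clone 11 was small, and the log2 fold change of -0.34 (SE 0.12, adjusted p in limma = 0.0965) was just past the threshold. The call was lost without any 1 of WT clones 28 and 36 and R98S clones 11, 13 and 35 (log2 fold changes -0.27, -0.31, -0.38, -0.33 and -0.31), and over the alternatives the adjusted p ran from 0.0401 to 0.319. It was also lost with edgeR, with either other scaling, without the expression filter and without the trend. Exons of Prpf39 share 5.01% of their bases with Fkbp3 on the opposite strand. Prpf40b, related to another yeast U1 protein and the lowest Prpf gene per length, had 529, 493 and 626 in WT and 395, 504 and 309 in R98S clones. Clone 13 lay within the WT range, and the log2 fold change of -0.47 (SE 0.20, adjusted p in limma = 0.15) was not called. It was -0.65 and called without clone 13. The 8 Prpf genes that were not called had log2 fold changes between -0.47 and 0.29.

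**Figure D2:**
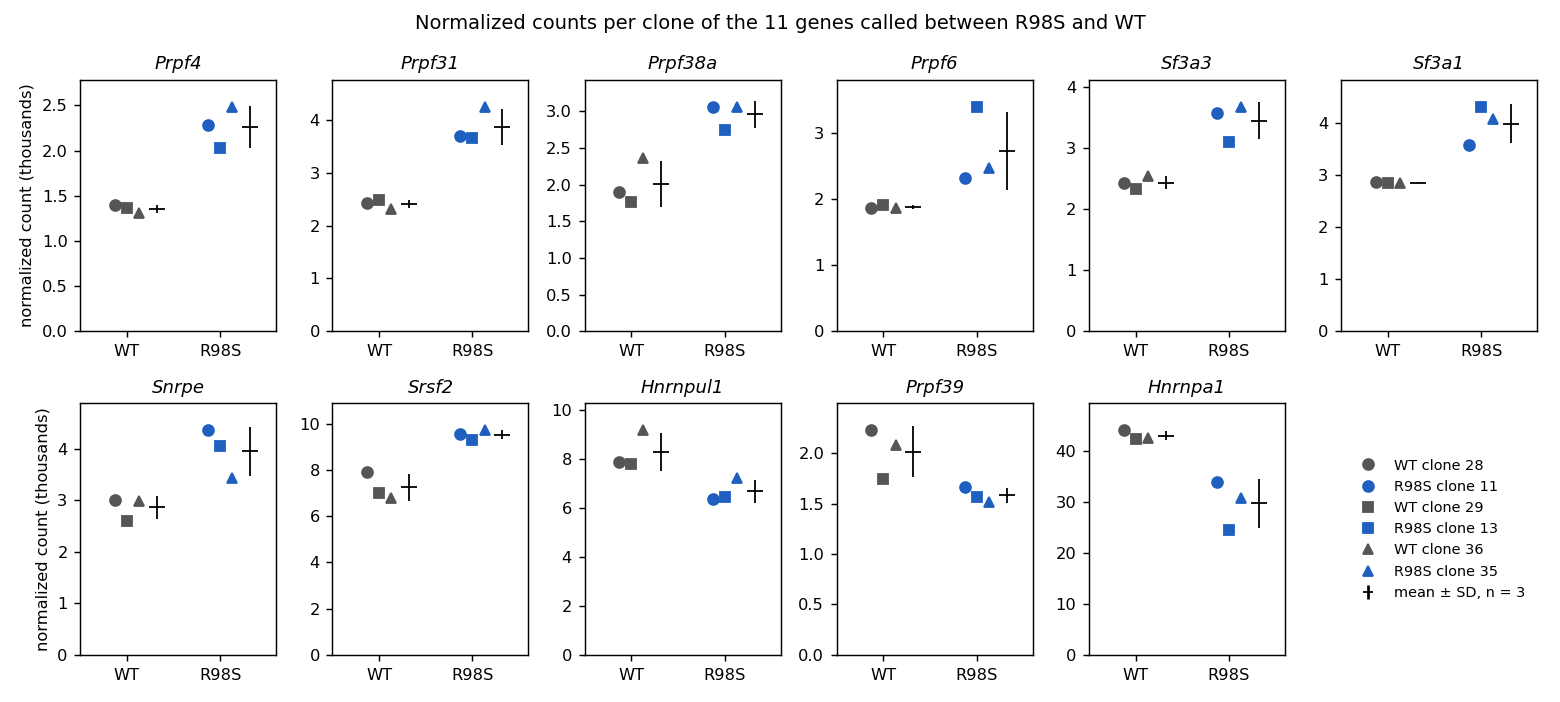
Normalized counts of the 11 called genes in each clone, in units of 1000, with the mean and SD of 3 clones per genotype beside the points and axes that start at 0. WT clones lie close together for Sf3a1 (2840 to 2860) and Prpf6 (1865 to 1911), and in all 11 panels the groups are separate.

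SF3A, the trimer that joins the U2 snRNP to form its active particle, had all 3 genes above WT in every R98S clone. Over all tested genes, 37.3% had groups without overlap in either direction. Sf3a3 had 2426, 2332 and 2549 in WT and 3576, 3105 and 3684 in R98S clones. Sf3a1, which contacts U1 as well, had 2860, 2842 and 2840 in WT and 3574, 4307 and 4067 in R98S clones. For Sf3a1 the WT clones were close together (SD 10.9), and the R98S clones spread more (SD 374). The log2 fold changes were 0.50 for Sf3a3 (SE 0.11, adjusted p in limma = 0.0203) and 0.48 for Sf3a1 (SE 0.10, adjusted p in limma = 0.0218). Both calls were kept in all 16 alternative fits. Sf3a2, the third subunit, had 1126, 1163 and 1058 in WT and 1304, 1232 and 1495 in R98S clones. Its groups did not overlap either, but the log2 fold change of 0.26 (SE 0.12, adjusted p in limma = 0.164) did not pass the threshold. It was 0.32 and called without R98S clone 13. Sf3a2 shares 16.1% of its exon bases with Plekhj1 on the opposite strand.

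None of the 6 Sf3b genes was called, with log2 fold changes from -0.19 to 0.30. Sf3b1, the subunit that clamps the branch point, had 16890, 15883 and 18202 in WT and 20478, 19019 and 14731 in R98S clones. R98S clone 35 was the lowest of all libraries and clone 11 the highest, and the log2 fold change was 0.08 (SE 0.14, adjusted p in limma = 0.745). Sf3b2, the partner of SF3B4 and the highest Sf3b gene per length, had a log2 fold change of -0.19 (SE 0.12, adjusted p in limma = 0.293). Sf3b3, a scaffold of the complex, had 10303, 9385 and 9571 in WT and 10142, 11463 and 13459 in R98S clones, with overlapping groups. U2AF was not called either. U2af2, the large subunit that binds the polypyrimidine tract, had 6641, 6396 and 6383 in WT and 7711, 6486 and 8313 in R98S clones. U2af1, the small subunit that binds the AG at the intron end, had 2758, 2827 and 2571 in WT and 3739, 2719 and 3318 in R98S clones. In both genes clones 11 and 35 stood above all WT clones and clone 13 fell among them. The log2 fold changes were 0.21 (SE 0.12, adjusted p in limma = 0.26) and 0.25 (SE 0.13, adjusted p in limma = 0.232). Without clone 13 they were 0.31 and 0.37, and both genes were called. U2af1l4, a paralog of U2af1, had values from 208 to 350 and a log2 fold change near 0, and 97.3% of its 50-base windows are shared with another annotated gene.

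Among the Snrp genes, Snrpe was called. It encodes SmE of the Sm ring, and its counts were 2995, 2598 and 2990 in WT and 4353, 4045 and 3435 in R98S clones. The groups did not overlap, and the log2 fold change was 0.46 (SE 0.12, adjusted p in limma = 0.0417). The call was lost without WT clone 28, WT clone 29 or R98S clone 11 (log2 fold changes 0.49, 0.39 and 0.38), with adjusted p from 0.00736 to 0.142 over the alternatives. Of its 50-base windows 20.8% also occur in 2 other annotated genes, among them a processed pseudogene. The other 6 Sm ring genes (Snrpb, Snrpd1, Snrpd2, Snrpd3, Snrpf and Snrpg) were not called. Snrpb, which encodes SmB and was the highest Snrp gene per length, had 5972, 6185 and 6170 in WT and 6083, 6778 and 6427 in R98S clones (log2 fold change 0.07, SE 0.09, adjusted p in limma = 0.631). Of the 6, Snrpd2 and Snrpg had groups without overlap, as had 37.3% of all tested genes. Snrpf, the lowest of the ring, ran from 181 to 210 in WT and 181 to 249 in R98S clones.

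Snrpa1 encodes a U2-specific protein, which binds U2 RNA beside the protein of Snrpb2. It had 2301, 2054 and 2228 in WT and 2771, 2445 and 2676 in R98S clones. The groups did not overlap, yet the log2 fold change of 0.26 (SE 0.10, adjusted p in limma = 0.125) was not called, and it was 0.31 and called without clone 13. Snrpn encodes a neuronal relative of SmB and belongs to an imprinted locus. It had 25.6, 61.3 and 37.0 in WT and 7.51, 28.6 and 17.6 in R98S clones. All values were above the floor of 3 reads, and R98S clone 13 lay within the WT range. The log2 fold change of -1.25 (SE 0.52) was the lowest of all members but was not called (adjusted p in limma = 0.144), and it was -1.66 and called without clone 13. On the same strand, Gm38393 shares 27.3% and Snurf 10% of the exon bases of Snrpn, and 21.2% of its 50-base windows occur in other annotated genes.

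Of the 10 SR protein genes, only Srsf2 was called in these libraries. SRSF2 binds exonic enhancers and regulates its own mRNA. Its counts were 7927, 6999 and 6804 in WT and 9557, 9312 and 9710 in R98S clones. R98S clones were close together (SD 200) and above all WT clones, and the log2 fold change was 0.40 (SE 0.10, adjusted p in limma = 0.035). The call was lost without WT clone 29 (log2 fold change 0.38), with adjusted p from 0.00229 to 0.145 over the alternatives. Srsf2 shares 15.6% of its exon bases with Mettl23 and 9.74% with Mfsd11, both on the opposite strand. Srsf1, the founding SR protein, had 12574, 11199 and 11648 in WT and 15236, 11991 and 14944 in R98S clones. Srsf7 had 6774, 6349 and 7126 in WT and 9859, 6381 and 8330 in R98S clones. In both genes clone 13 was within the WT range and the other R98S clones above it. Their log2 fold changes of 0.25 (SE 0.12, adjusted p in limma = 0.215) and 0.26 (SE 0.16, adjusted p in limma = 0.301) were not called. Without clone 13 they were 0.36 and 0.43, and both were called. Srsf3, which promotes export of mRNA as well, had 10068, 9406 and 8503 in WT and 10522, 6669 and 9477 in R98S clones. Srsf5 had 12226, 9971 and 10393 in WT and 8522, 10081 and 8535 in R98S clones, with a log2 fold change of -0.26 (SE 0.12, adjusted p in limma = 0.182). Srsf5, too, was called without clone 13, at -0.34. The 9 SR genes that were not called, among them Srsf4, the lowest per length, had log2 fold changes from -0.26 to 0.26.

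The largest fall among called genes was that of Hnrnpa1, which often opposes SR proteins at splice sites and is the most abundant gene of the set. Its normalized count was 43988, 42319 and 42506 in WT and 33824, 24499 and 30690 in R98S clones. All R98S clones were below all WT clones, and clone 13 was the lowest. The means were 42938 ± 914 and 29671 ± 4745 (SD, n = 3), and the log2 fold change was -0.55 (SE 0.14, adjusted p in limma = 0.0377). The call was lost without WT clone 28 or 29, with log2 fold changes of -0.53 and -0.56, and when the shift of neighbouring genes was removed (-0.34), with adjusted p from 0.00252 to 0.141 over the alternatives. Of its 50-base windows 46.4% are shared with 18 other annotated genes, the one sharing most being a processed pseudogene, and the mapping quality filter can remove an unknown part of its reads in every library. Its relative Hnrnpa2b1, which shares 2.44%, had 30949, 31366 and 36558 in WT and 38407, 33545 and 39685 in R98S clones, with overlapping groups (log2 fold change 0.18, SE 0.13, adjusted p in limma = 0.379). The ratio of Hnrnpa1 to Hnrnpa2b1 counts was 1.42, 1.35 and 1.16 in WT and 0.881, 0.73 and 0.773 in R98S clones, so Hnrnpa1 gave more counts in each WT clone and Hnrnpa2b1 in each R98S clone. This ratio was chosen after the values were seen, and has no test.

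Hnrnpul1, a relative of hnRNP U with a role in DNA repair, had 7892, 7803 and 9178 in WT and 6393, 6456 and 7224 in R98S clones. The groups were separate by a small margin, and the log2 fold change was -0.31 (SE 0.11, adjusted p in limma = 0.0961). The call was lost without WT clone 28, 29 or 36 or without R98S clone 11 or 13 (-0.34, -0.35, -0.23, -0.28 and -0.28), with adjusted p from 0.0695 to 0.229 over the alternatives, and likewise with edgeR, with either other scaling, without the expression filter, without the trend and after removal of the regional shift. The other 18 Hnrnp genes were not called, with log2 fold changes from -0.26 (Hnrnph2) to 0.36 (Hnrnpm). Hnrnpm had 9883, 9482 and 8486 in WT and 13045, 9936 and 13088 in R98S clones. Hnrnpc, which packages nascent transcripts, had 10775, 10546 and 10482 in WT and 16643, 11355 and 13072 in R98S clones. For both the groups did not overlap, with clone 13 just above the WT range (adjusted p in limma = 0.109 and 0.138), and both were called without it, at log2 fold changes of 0.50 and 0.48. Hnrnph1, which binds runs of G, had 11906, 11108 and 10276 in WT and 16027, 9891 and 13277 in R98S clones, where clone 13 was the lowest library of all. Hnrnpk, which binds runs of C, had 20268, 20632 and 19716 in WT and 22523, 20936 and 22159 in R98S clones, separate groups with a log2 fold change of 0.11 (SE 0.10, adjusted p in limma = 0.464). Hnrnpu, a scaffold of nuclear RNA and chromatin, had 3713, 3283 and 4090 in WT and 4764, 3487 and 3990 in R98S clones, with overlapping groups.

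R98S clones differed from each other more than WT clones did in these genes. The SD of log2 values over clones was larger in R98S than in WT cells for 56 of 67 members (83.6%), compared with 60.6% of all tested genes and 64% of tested genes with a mean of at least 1000, a level that 61 members reached. The median SD of the members was 0.07 in WT and 0.18 in R98S cells on the log2 scale. For tested genes with a mean of at least 1000 it was 0.12 and 0.17, and for all tested genes 0.16 and 0.20. Set against genes of that level, the members thus differed more by their low spread in WT than by their spread in R98S cells. R98S clone 13 was the lowest R98S clone for 41 of 67 members (61.2%), compared with 37.6% of all tested genes. For 14 members (20.9%, against 7.45% of all tested genes) R98S clones 11 and 35 both lay above every WT clone and clone 13 did not. These were Hnrnpa2b1, Hnrnpd, Hnrnpf, Hnrnph1, Hnrnpr, Prpf4b, Sf3b6, Snrpd3, Snrpf, Srsf1, Srsf10, Srsf7, U2af1 and U2af2. Clone 11 stood apart in this way for 4 members (6.0%, against 3.8% of all tested genes) and clone 35 for 1 (1.5%, against 4.4%). In the other direction, 2 R98S clones lay below every WT clone and the third did not. The third was clone 11 for 4 members (6.0%, against 3.4%) and clone 13 for 4 (6.0%, against 7.6%). It was clone 35 for 6 members (9.0%, against 4.8%). Without clone 13, 24 of the members were called, 20 higher and 4 lower, against 27.9% of all genes tested in that fit. Of the 11 genes called with all clones, 9 were among them, and 15 were gained. For the 14 genes named above, leaving out clone 13 raises the fold change by construction. For Prpf18, Prpf40b, Snrpn and Srsf5, clones 11 and 35 both lay below every WT clone and clone 13 did not. Leaving it out enlarges their fall in the same way. Clone 13 was also the R98S clone nearest to WT for Hnrnpc, Hnrnpm, Sf3a2 and Snrpa1. A call of any of these genes without clone 13 therefore adds no support for a difference. The heat map and the plot of clone 13 against the other R98S clones show the values behind these counts.

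**Figure D3:**
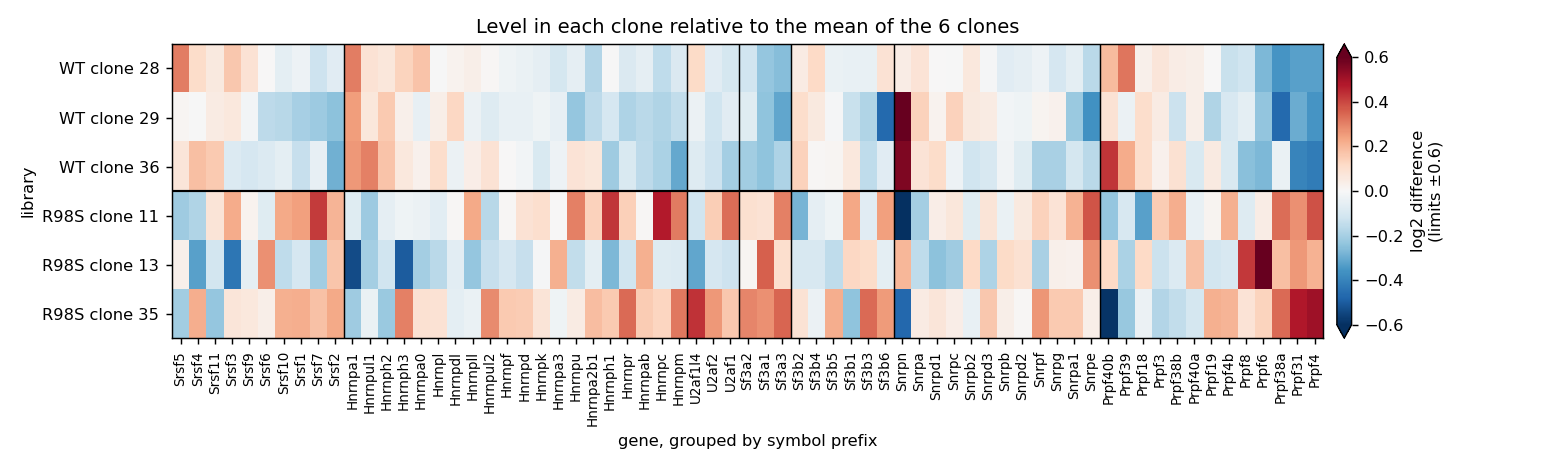
Log2 difference of each of the 67 genes (horizontal axis, by family) in each clone (vertical axis) from the mean of the 6 clones, with red above and blue below that mean and a colour scale cut at its ends. R98S clone 13 is the lowest R98S clone for 41 genes, and all 3 R98S clones are above the mean for Prpf4, Prpf31, Sf3a1 and Sf3a3.

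**Figure D4:**
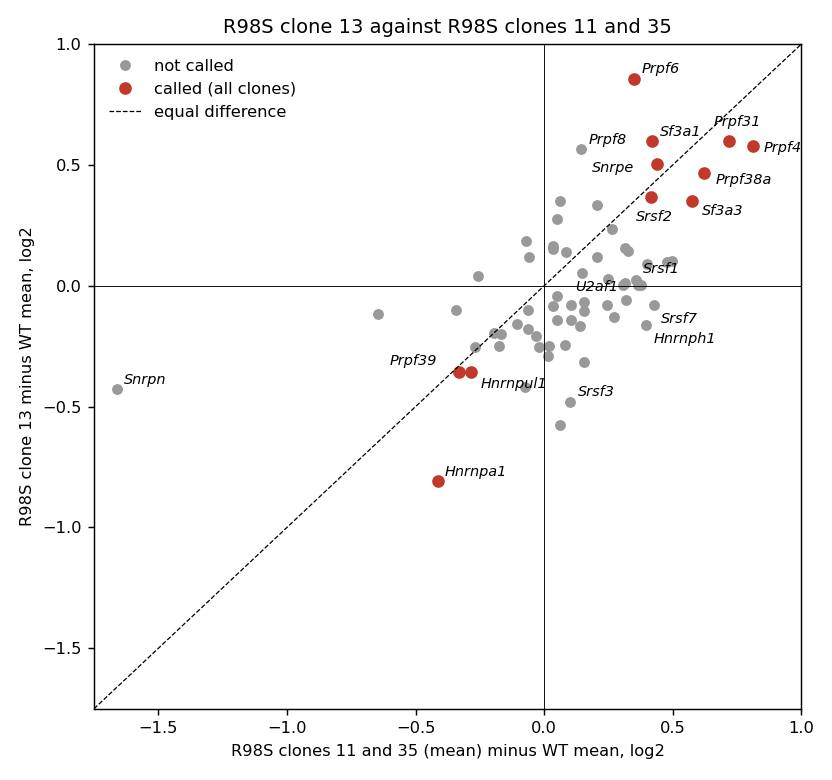
Log2 difference from the WT mean in R98S clone 13 (vertical) against the mean of R98S clones 11 and 35 (horizontal) for the 67 genes, with a dashed line of equal difference. The groups of the 11 called genes do not overlap, which by itself gives these genes the same sign on both axes. Prpf6 is farthest above the line among them. Srsf1, Srsf7, U2af1 and Hnrnph1 are above 0 on the horizontal axis and near or below 0 on the vertical one.

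Levels varied far more between genes than between groups. Per kb of exon, the mean normalized count ran from 124 (Hnrnpr) to 11514 (Hnrnpa1) among hnRNP genes and from 162 (Srsf4) to 2835 (Srsf2) among SR genes. It ran from 158 (U2af1l4) to 1699 (U2af2) for U2AF, from 463 (Sf3a2) to 1058 (Sf3a3) for SF3A and from 420 (Sf3b5) to 1544 (Sf3b2) for SF3B. Snrp genes spanned 13.7 (Snrpn) to 3173 (Snrpb) and Prpf genes 96.2 (Prpf40b) to 1810 (Prpf8). Snrpn, U2af1l4 and Prpf40b, each of which has a more abundant paralog in its family, were the lowest of theirs. All exons of a gene in the annotation enter its length, which lowers the value of genes with long rarely used exons. Paralogs and genes with processed pseudogenes can lose reads to the mapping quality filter, and the loss was not measured. Of the members, 15 share at least 20% of their 50-base windows with other annotated genes, and 24 share none. These shares include genes that overlap at the same locus, where a shared window need not cost reads to this filter. Hnrnpm, U2af1l4 and Snrpn have such an overlap on the same strand. Among the 15 members with at least 20% are U2af1 (59.4%), U2af2 (29.9%), Hnrnpk (34.5%), Hnrnpm (28.8%, with March2 on the same strand), Srsf3 (31.5%) and Srsf5 (27.9%), besides Hnrnpa1 and Snrpe.

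Promoters of the genes were compared through the RefSeq table of windows from 250 bases before to 50 bases after the start (build GRCm38.p6), which held 58 of the 67 members in 79 windows. The sequence CCGGAAGT, the core bound by ETS factors, occurred on either strand in 11 of 58 members (19%), in 10% of the tested genes with a window and in 4.31% of all genes in the table. By window, the shares were 16.5%, 8.66% and 3.89%. Of the 8 genes called higher, 4 held it (Prpf6, Sf3a1, Sf3a3 and Snrpe), compared with 12.6% of all tested genes called higher. The other motifs searched on both strands were CACGTG (15.5% of members against 11.7% of tested genes), TGACGTCA (3.45% against 3.8%), GGGCGG (67.2% against 68.5%), CCAAT (51.7% against 43.4%), TATAAA (12.1% against 8.13%), and the NRF1 (1.72% against 2.66%) and YY1 sites (1.72% against 1.98%). Such matches are descriptions of letters and do not show binding. The windows of the 4 called genes with the ETS core are printed 5' to 3' on the strand of the gene, with the core or its reverse complement in capitals, followed by those of Prpf4 and Hnrnpa1, the called genes with the largest rise and fall, which hold no match. The start used for Prpf6 lies inside the annotated gene, whose first base is chr2:181591868.
Prpf6 (chr2:181601069-181601368, plus strand): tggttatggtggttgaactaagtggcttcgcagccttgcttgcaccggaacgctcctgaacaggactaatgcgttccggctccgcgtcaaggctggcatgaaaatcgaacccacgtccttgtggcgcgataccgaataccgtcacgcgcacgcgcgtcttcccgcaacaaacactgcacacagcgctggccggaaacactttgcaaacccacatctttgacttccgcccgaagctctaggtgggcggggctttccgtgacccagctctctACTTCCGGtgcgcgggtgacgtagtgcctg
Sf3a1 (chr11:4160104-4160403, plus strand): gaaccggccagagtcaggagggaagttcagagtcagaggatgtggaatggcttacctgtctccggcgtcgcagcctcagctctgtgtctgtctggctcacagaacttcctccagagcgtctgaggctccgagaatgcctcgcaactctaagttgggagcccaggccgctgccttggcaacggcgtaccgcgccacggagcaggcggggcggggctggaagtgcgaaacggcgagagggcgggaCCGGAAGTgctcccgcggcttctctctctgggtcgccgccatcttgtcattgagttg
Sf3a3 (chr4:124714611-124714910, plus strand): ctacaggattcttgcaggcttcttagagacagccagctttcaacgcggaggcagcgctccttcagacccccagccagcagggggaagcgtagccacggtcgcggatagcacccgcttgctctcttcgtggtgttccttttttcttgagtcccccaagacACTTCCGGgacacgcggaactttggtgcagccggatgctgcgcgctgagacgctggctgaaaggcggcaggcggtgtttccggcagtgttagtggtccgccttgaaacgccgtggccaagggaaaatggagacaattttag
Snrpe (chr1:133610231-133610530, minus strand): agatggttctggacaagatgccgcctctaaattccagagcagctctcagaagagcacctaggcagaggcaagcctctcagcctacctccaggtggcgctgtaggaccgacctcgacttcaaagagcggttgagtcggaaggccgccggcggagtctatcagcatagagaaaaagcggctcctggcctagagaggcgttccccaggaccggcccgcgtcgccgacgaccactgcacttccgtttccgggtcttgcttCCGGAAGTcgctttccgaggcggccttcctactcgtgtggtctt
Prpf4 (chr4:62408533-62408832, plus strand): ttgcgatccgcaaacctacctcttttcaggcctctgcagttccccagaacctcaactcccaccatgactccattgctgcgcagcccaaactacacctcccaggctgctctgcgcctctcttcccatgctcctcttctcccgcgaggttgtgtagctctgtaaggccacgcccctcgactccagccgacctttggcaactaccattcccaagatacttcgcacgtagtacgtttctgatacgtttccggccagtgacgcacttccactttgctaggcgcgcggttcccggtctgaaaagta
Hnrnpa1 (chr15:103240147-103240446, plus strand): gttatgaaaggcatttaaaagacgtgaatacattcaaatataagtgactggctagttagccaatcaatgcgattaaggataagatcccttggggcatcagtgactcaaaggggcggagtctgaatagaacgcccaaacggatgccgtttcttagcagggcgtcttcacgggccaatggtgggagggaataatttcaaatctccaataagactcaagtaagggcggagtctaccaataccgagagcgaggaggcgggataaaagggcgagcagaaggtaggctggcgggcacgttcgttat

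Counting the first transcribed base as 0, the match starts at position 20 in Prpf6, -7 in Sf3a1, -91 in Sf3a3 and 6 in Snrpe. So 3 of the 4 matches begin within 20 bases of the start used. The members' windows had a median GC content of 60% and a median of 25 CpG dinucleotides, against 60.7% and 20 in tested genes.

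The members lie on 18 chromosomes and the called ones on 7. Chromosome 4 carries 6 members, of which Prpf4, Prpf38a and Sf3a3 were called. To see whether a gene moved with its surroundings, the median deviation of its 30 closest neighbours among the tested genes was subtracted in each library. This shift between R98S and WT ranged from -0.37 (Prpf38b) to 0.29 (Sf3b1) on the log2 scale and was negative for 37 members. After its removal, 21 members (31.3%) were called, against 25.2% of all genes tested in that fit. Of the 21, 18 were higher and 3 lower, and 8 of the 11 called before were among them. Hnrnpa1, Hnrnpul1 and Srsf2 lost their calls, with log2 fold changes of -0.34, -0.24 and 0.30. Sf3a1 at 0.31 and Snrpe at 0.29 remained called. For Prpf4 the neighbours shifted by 0.25, and its own log2 fold change became 0.48 and remained called. Prpf38b, a paralog of Prpf38a, had a log2 fold change near 0 (-0.01, adjusted p in limma = 0.979) that became 0.36 relative to its neighbours.

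The rest of the splicing apparatus was followed through 10 lists of 133 gene symbols outside the 7 name groups, of which 129 were tested. As for the members, the share called was below the background: 22 genes (17.1%) passed in limma, 17 higher and 5 lower, with a median log2 fold change of 0.07. Larger single changes occurred here. In the minor spliceosome, which removes the rare U12-type introns, 2 of 9 genes were called (22.2%, against 23.9% of all tested genes). Snrnp48, a U11/U12 protein, had 589, 582 and 714 in WT and 1130, 1363 and 1320 in R98S clones, with no overlap and a log2 fold change of 1.02 (SE 0.14, adjusted p in limma = 0.00405). Zrsr1, a relative of U2af1, had 135, 165 and 106 in WT and 260, 258 and 270 in R98S clones (0.97, SE 0.20, adjusted p in limma = 0.0188). The other 7 minor spliceosome genes were not called.

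The SMN and methylosome list serves the assembly of Sm rings. In limma, 3 of its 11 tested genes (27.3%) were called higher, against 10.7% of all tested genes, and 0 lower. An unadjusted p under 0.05 in limma, in either direction, was reached by 5 of the 11, and by 3663 of all 11550 tested genes. Gemin6, a subunit of the SMN complex, had 345, 301 and 373 in WT and 706, 485 and 562 in R98S clones (log2 fold change 0.77, SE 0.18, adjusted p in limma = 0.026). Prmt5, which methylates Sm proteins, changed by 0.51 (SE 0.14, adjusted p in limma = 0.0482), a call that was lost without WT clone 29, WT clone 36 or R98S clone 11 (0.54, 0.39 and 0.41) and relative to its neighbours (0.27). The third was Gemin5, which recognises the snRNA. Of the U snRNP partners, 1 of 14 was called, Cd2bp2, which binds the U5 particle with PRPF6 (0.56, SE 0.12, adjusted p in limma = 0.0193). Relative to its 30 neighbouring genes Cd2bp2 was not called, at 0.20. Of 10 LSm genes, Lsm7 of the U6 ring was called (0.55, SE 0.16, adjusted p in limma = 0.0592), and the call was lost without any 1 clone but R98S clone 13 (0.44 to 0.56).

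Regulators moved in both directions. Srpk2, a kinase of SR proteins, fell from 1402, 1572 and 1276 in WT to 985, 920 and 830 in R98S clones (log2 fold change -0.63, SE 0.13, adjusted p in limma = 0.017). Its paralog Srpk1, with a mean of 6442 against 1164 for Srpk2, was not called (0.20, SE 0.14, adjusted p in limma = 0.354). Ptbp2, a polypyrimidine tract binding repressor, was lower by a log2 fold change of -0.60 (SE 0.18, adjusted p in limma = 0.0608), which was lost without WT clone 28, WT clone 29, R98S clone 13 or R98S clone 35 (-0.58, -0.57, -0.59 and -0.43), without the trend, and relative to its neighbours (-0.28). The means of its paralogs Ptbp1 and Ptbp3 were 10229 and 11798, against 1012 for Ptbp2. Ptbp1 was not called, at -0.06. Ptbp3 was called higher, at 0.41 (SE 0.11, adjusted p in limma = 0.0431). That call was lost without WT clone 28 or R98S clone 11 (0.44 and 0.37) and relative to its neighbours (0.10). Mbnl1, a regulator of tissue-specific exons, and Tardbp, the gene of TDP-43, were higher by 0.57 each (SE 0.14 and 0.13, adjusted p in limma = 0.0288 and 0.0227), and for Mbnl1 the call was lost without WT clone 28 or 29 (0.53 both). None of the 11 SR-related genes passed in limma, with 1 at an unadjusted p under 0.05. Of 17 genes of the Prpf19-associated and B complexes 3 were called higher (17.65%), and of 9 helicases 1 (11.1%), against 10.7% of all tested genes.

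Exon junction and nonsense-mediated decay genes, which mark spliced mRNA and remove faulty transcripts, had 5 of 15 called (33.3%, against 23.9% of all tested genes). Magohb, a core subunit of the exon junction complex, had 534, 362 and 434 in WT and 166, 139 and 156 in R98S clones. The highest R98S clone was less abundant than the lowest WT clone, and the log2 fold change of -1.51 (SE 0.19, adjusted p in limma = 0.00312) was the largest in size over the 10 lists. Its paralog Magoh was more abundant, with a mean of 1945 against 299 for Magohb. Magoh was not called, at 0.23 (SE 0.14, adjusted p in limma = 0.303). Smg9, a partner of the SMG1 kinase, was lower (-0.65, SE 0.17, adjusted p in limma = 0.0429), a call lost without WT clone 28, WT clone 29 or R98S clone 11 (-0.54, -0.64 and -0.60). Upf3b, which links the junction complex to decay, was higher (0.59, SE 0.11, adjusted p in limma = 0.0142). Casc3 was the other gene called higher (0.46), a call lost without WT clone 28 (0.46). Upf1, the helicase of nonsense-mediated decay, was the other called lower (-0.43), and kept the call in 8 of 16 alternative fits. It was lost without WT clone 28 or 29 or R98S clone 11, 13 or 35 (-0.32, -0.41, -0.41, -0.40 and -0.49), and relative to its neighbours the log2 fold change was -0.022.

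**Figure D5:**
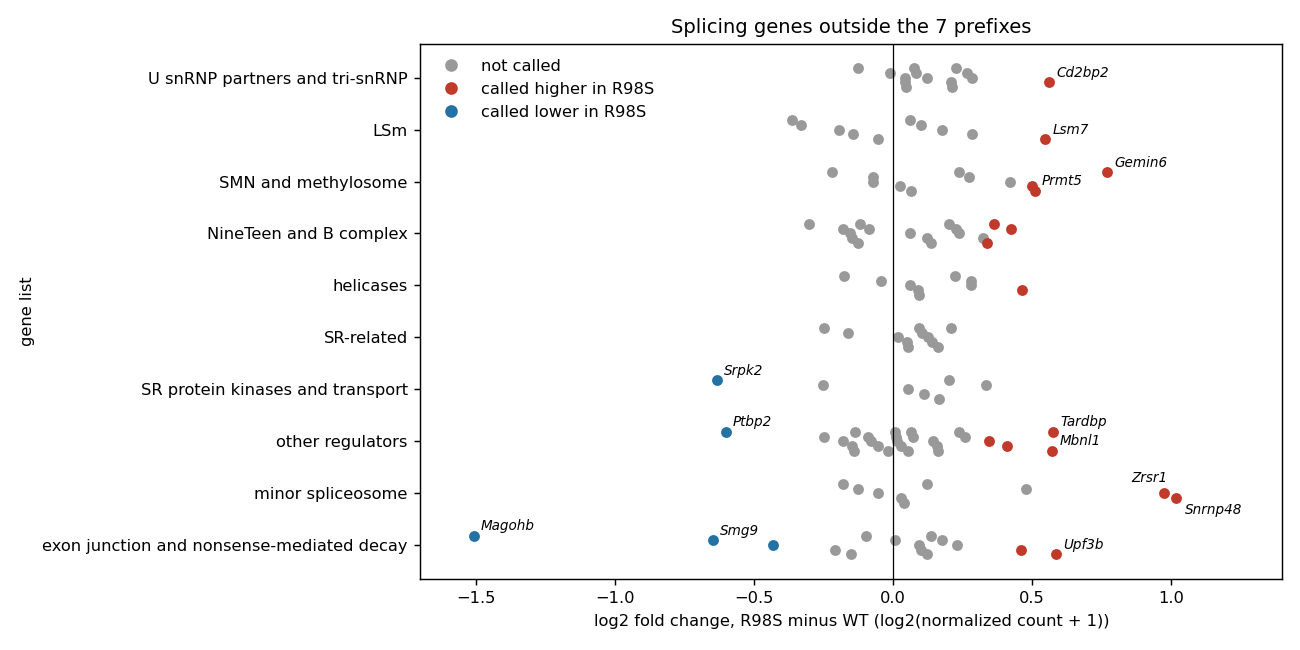
Log2 fold change between R98S and WT cells of the 129 tested splicing genes outside the 7 name groups, by list, with colours for called genes. Snrnp48 at 1.02 and Magohb at -1.51 are the extremes, and most genes of each list lie within 0.5 of 0.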

How the data were processed

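The authors removed reads of ribosomal and transfer RNA with Bowtie2, aligned the rest to the mouse genome (mm10) with TopHat, kept primary alignments with a mapping quality of at least 10 and counted reads on exons per gene. HTSeq and SAMtools are named in the submitters' processing notes, and the annotation and strand setting of the counting are not given in the sources used here. Each deposited value is a signal: the read count of a gene that the authors divided by DESeq2 size factors. Nonzero values were multiples, whole within 1e-06 reads for 100% of them, of the worth of 1 read (0.925 to 1.07, and 1.0008 in WT clone 36). Reads were recovered from these steps, and recomputed size factors differed by 0%.

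Clones were grouped by their labels. R98S and WT clones were compared in limma (version 3.58.1, R 4.3.3), two-sided, with an intensity trend, on log2(normalized count + 1) for genes with a mean of at least 10, with Benjamini-Hochberg adjustment over all 11550 tested genes and a threshold of 0.1. This scale understates changes of low genes. The script was tested on simulated data. Alternatives were edgeR (version 4.0.16) and DESeq2 (version 1.42.0) on recovered reads, pseudocounts of 0.5 and 5, other filters and scalings, no trend, a threshold of 0.05, removal of the shift of the 30 nearest genes, and leaving out each clone. Positions, exon lengths and overlaps were taken from GENCODE on GRCm38.

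The members and lists were chosen with earlier results of these data known. Named genes are the called members, a set list of well-known factors, the highest and lowest gene per length in each family, genes next to the level limit, genes with neighbours shifted by over 0.3, and other splicing genes called with a log2 fold change of at least 0.5 in size. Any further gene was chosen after its values were seen.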

Additional observations from a re-analysis of the deposited data

How the results depend on the processing

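Counts of calls depended on single clones. Leaving out 1 clone gave between 5 and 24 called members, between 5 and 20 called higher, between 0 and 4 called lower, and between 11 and 36 other splicing genes. Removal of WT clone 28 gave the low end of each range, and removal of R98S clone 13 the high end. Without WT clone 28, 7.46% of members and 11.5% of all tested genes were called. Without R98S clone 13 the shares were 35.8% and 27.9%. Removing the regional shift raised the called members to 21 (31.3%, against 25.2% of all genes tested) and those higher to 18. The count of members called lower was 1 without a filter, with either other scaling, without the trend, with edgeR, and at an adjusted p under 0.05. The cause was not tested. DESeq2 called 16 members (23.9%, against 26.9% of all genes tested) and edgeR 10 (14.9%, against 23.8%). The median log2 fold change of the members, 0.078, ran from 0.059 without R98S clone 11 to 0.15 with the regional shift removed, and was 0.12 with the upper quartile. The difference in their share of counts, 0.123 percentage points, was 0.0825 when WT clone 29, 0.0814 when R98S clone 35 and 0.19 when R98S clone 13 was left out.

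Among 55 single genes, 934 comparisons with an alternative kept direction and call in 820, lost a call in 59, gained one in 29 and changed sign in 26. The 7 genes that changed sign were not called. Prpf38b became 0.014 with scaling to the same total, 0.034 with the upper quartile, 0.013 with edgeR, 0.0089 with DESeq2 and 0.36 without the regional shift, and U2af1l4 0.020, 0.040, 0.047, 0.043 and 0.096 in the same order. Without the regional shift, Prpf3 became 0.15, Sf3b1 -0.22 and Rpl10 0.035. Without single clones, Prpf38b ran from -0.12 to 0.065, U2af1l4 from -0.22 to 0.16, Sf3b1 from -0.019 to 0.22, Sf3b5 from -0.079 to 0.11, Srsf3 from -0.23 to 0.10 and Rpl10 from -0.29 to 0.13. No paired analysis was possible because the clone numbers differ between the groups. Depth was alike in all libraries, and limits only the lowest members, such as Snrpn.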
